A study of Rattus norvegicus with 72 samples.

Results

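Histone genes were followed in glomeruli, S1 proximal tubules and whole kidney of rats after removal of 1 kidney. They were taken as every gene entry whose symbol starts with Hist1h, Hist2h, Hist3h, Hist4h, H1f, H2af or H3f. The choice was made with earlier results of these data known, although its rule goes by name alone. It gave 55 of the 32545 entries, 43 replication-dependent genes (symbols with Hist) and 12 variant genes (H1f, H2af and H3f). The 55 entries carry 44 distinct symbols, because 6 symbols are shared by 17 entries, which are written here with their Ensembl identifiers. Near-identical histone copies can lose reads to each other or to none, so the value of a single entry is uncertain.

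Histones are the proteins that DNA is wound around: H2A, H2B, H3 and H4 form the nucleosome core and H1 binds the DNA between cores. The replication-dependent genes lie in clusters, have no introns, and are transcribed mainly in S phase. Their mRNA ends in a stem-loop instead of a poly(A) tail and is bound there by SLBP, whereas most variant histone mRNA is polyadenylated and made throughout the cell cycle, also in cells that do not divide. H2afx, counted here with the variants by its symbol, is known to give both a stem-loop and a polyadenylated mRNA. Some Hist genes, Hist1h1c among them, are known to be transcribed in resting cells as well, as polyadenylated mRNA.

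The animals were adult male Sprague-Dawley rats without a stated transgene or drug. The right kidney was removed, or in sham controls its pedicle was dissected and the wound closed, and the remaining left kidney was taken 24, 48 or 72 h later. Each of the 18 groups of tissue, surgery and time held 4 libraries. RNA of microdissected glomeruli and S1 tubules was amplified (NuGEN Ovation) and sequenced from 1 end, whereas whole kidney RNA was made into stranded TruSeq libraries and sequenced from both ends, so the segments and the whole kidney were never tested against each other. Which whole kidney libraries were made with the HT and which with the LT form of the TruSeq kit was not given in the sources used here. Whether each library came from a rat of its own is not stated, so a p-value here covers only library-to-library spread, which may be technical.

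Whole kidney libraries held 10102869 to 55517383 gene counts, glomeruli 2643258 to 37408599 and S1 tubules 7883861 to 87368807. Reads with more than 1 placement, which are not counted for a gene, made up 32.1 to 93.9% of whole kidney reads, the highest value being nephrectomy 24 h library 3. In the 23 glomerular libraries kept they made up 34.8 to 59.7%. Of the uniquely placed glomerular reads, 2.9 to 40.1% (median 24.4%) were counted for a gene. The 37 mitochondrial entries took 36.0 to 80.6% of whole kidney gene counts, 9.9 to 22.9% in glomeruli and 41.3 to 72.3% in S1 tubules, so levels below are CPM (counts relative to library size) after scaling by TMM factors, unless stated. In whole kidney sham libraries this share ran from 36.0 to 80.6% at 24 h, against 64.6 to 74.2% after nephrectomy. Libraries 2 of the sham 24 h groups of glomeruli and S1 tubules went against their labels. The library labelled glomeruli had a mean of 3.49 log2 CPM over podocyte markers and 9.85 over proximal tubule markers, and the library labelled S1 had 9.61 and 6.20. Both were left out of the results, and nephrectomy against sham called no histone gene in either segment with or without them.

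Of the 43 Hist and 12 variant entries, 41 and 9 were abundant enough to test in whole kidney. Glomeruli left 23 Hist and 10 variant entries to test, S1 tubules 13 and 7. The filter used all groups together. Of the 55, H1foo, H1fnt, H2afb3 and Hist1h4b (ENSRNOG00000045978) were at 0 in all 12 whole kidney sham libraries. H1f0, H3f3a, Hist2h2be and Hist3h2a were not found among the symbols and were not analysed here.

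Promoter sequences were read from RefSeq (build GRCr8) for the 28 entries that a single RefSeq gene could be matched to, 19 Hist and 9 variant. The motifs were searched on both strands in the 250 bases before each start: CCAAT, ATTTGCAT (the octamer), TATAAA, and AAACACA (an H1 promoter element). A few windows are shown, of 4 genes called in whole kidney below, of the abundant Hist1h2bg that was not called, and of the variant H2afz. Capitals mark these motifs or their reverse complements.
Hist1h2bd (chr17:47489009-47489258, minus strand): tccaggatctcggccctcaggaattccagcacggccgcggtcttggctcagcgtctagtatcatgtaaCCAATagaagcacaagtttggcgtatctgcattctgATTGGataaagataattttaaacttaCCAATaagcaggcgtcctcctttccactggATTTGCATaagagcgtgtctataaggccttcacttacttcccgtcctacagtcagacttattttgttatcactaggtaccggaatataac
Hist1h2bk (chr17:47181941-47182190, minus strand): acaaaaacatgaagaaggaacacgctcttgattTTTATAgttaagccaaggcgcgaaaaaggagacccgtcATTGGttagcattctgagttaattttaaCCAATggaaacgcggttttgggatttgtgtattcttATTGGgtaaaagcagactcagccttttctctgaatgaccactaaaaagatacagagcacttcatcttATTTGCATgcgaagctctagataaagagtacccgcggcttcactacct
Hist1h1a (chr17:41794869-41795118, minus strand): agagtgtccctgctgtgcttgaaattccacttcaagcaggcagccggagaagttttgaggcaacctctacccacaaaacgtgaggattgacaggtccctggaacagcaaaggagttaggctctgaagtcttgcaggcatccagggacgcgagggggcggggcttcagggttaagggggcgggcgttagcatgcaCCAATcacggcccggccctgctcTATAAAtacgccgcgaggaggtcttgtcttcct
Hist1h3b (chr17:47418946-47419195, plus strand): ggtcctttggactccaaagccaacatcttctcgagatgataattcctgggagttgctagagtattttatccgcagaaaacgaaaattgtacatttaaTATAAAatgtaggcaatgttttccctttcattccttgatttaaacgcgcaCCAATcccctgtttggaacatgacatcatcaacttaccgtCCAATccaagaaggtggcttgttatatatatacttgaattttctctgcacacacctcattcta
Hist1h2bg (chr17:41999019-41999268, plus strand): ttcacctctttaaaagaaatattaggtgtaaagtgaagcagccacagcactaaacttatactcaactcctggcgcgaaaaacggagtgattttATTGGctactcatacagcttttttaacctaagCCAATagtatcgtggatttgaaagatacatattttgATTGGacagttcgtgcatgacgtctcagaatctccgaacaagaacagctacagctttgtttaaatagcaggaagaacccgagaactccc
H2afz (chr2:229028845-229029094, plus strand): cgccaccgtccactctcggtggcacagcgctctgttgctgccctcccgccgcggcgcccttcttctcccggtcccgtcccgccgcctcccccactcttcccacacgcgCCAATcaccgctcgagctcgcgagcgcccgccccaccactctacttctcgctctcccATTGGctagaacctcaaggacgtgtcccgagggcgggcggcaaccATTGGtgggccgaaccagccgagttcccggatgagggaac

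CCAAT stood in 17 of the 19 Hist windows (89.5%) and 5 of the 9 variant windows (55.6%), against 34.0% of all 33469 RefSeq promoters of the same length. ATTTGCAT stood in 8 of 19 Hist windows (42.1%), in 4 of 7 H2A and 4 of 7 H2B genes, and in 1.56% of all promoters. It was in no window of the 3 H1 genes and of the 9 variants. TATAAA stood in 13 Hist windows (68.4%), in 0 variant windows and in 12.9% of all. AAACACA stood in 4 Hist windows (21.1%), 2 of them of the 3 H1 genes, in 1 variant window and in 6.08% of all promoters. In the windows printed, the octamer is in Hist1h2bd and Hist1h2bk and not in Hist1h2bg, which has 3 CCAAT matches like the others of its type shown. A match describes the letters of a window and not a bound site, and neighbouring histone genes can share a window.

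The first comparison asked which histone mRNAs differed in whole kidney after nephrectomy, taken as the mean of the differences at 24, 48 and 72 h. Replication-dependent histone mRNA was higher: 13 of 41 Hist entries rose and 0 fell, with log2 fold changes of 0.79 to 1.70. Over all genes tested, 1.69% were called higher and 1.17% lower. None of the 9 variants passed the test (edgeR quasi-likelihood, Benjamini-Hochberg adjusted over 15678 genes); H2afx was the 1 variant higher at an unadjusted p under 0.05, and DESeq2 called it. At that unadjusted level 27 Hist entries were higher, against 8.21% of all genes. The median log2 fold change was 0.91 over Hist genes, with 39 of 41 above 0, 0.21 over variants, with 6 of 9 above 0, and -0.01 over all genes. In bulk tissue, more cells that carry an mRNA and more mRNA per cell cannot be told apart. The count of 13 depended on single libraries: leaving out 1 library at a time gave 6 to 18, among them 6 without nephrectomy 48 h library 4. Leaving out the 24 h libraries numbered 3 and 4 gave 2, Hist1h1a and Hist1h3a. Calls over all genes in these fits with libraries left out are not given here, so a general loss of calls cannot be told from one of Hist genes. In deposited FPKM, sham 24 h libraries 1 and 2 stood above 3 and 4. Values were 131 and 72.8 against 7.63 and 6.80 for H2afz, 148 and 113 against 24.0 and 20.4 for Hist1h4a, and 93.0 and 111 against 50.4 and 53.6 for Hist1h2bg. FPKM rest on library totals. In TMM-scaled CPM, given below, Hist1h1a and Hist1h3a had library 2 under library 3, while H2afz kept a wide spread. The source of the split in FPKM was not tested. DESeq2 called 21 Hist entries, edgeR without TMM 5 and limma on log2(FPKM + 1) 0. Over all genes these fits called 865, 121 and 0, against 448 in the main fit. Whichever 1 library was left out, 6 entries were called (Hist1h1a, Hist1h2ail1 (ENSRNOG00000046144), Hist1h3a, Hist1h2bk, Hist1h2ao and Hist1h2bd).

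**Figure D1:**
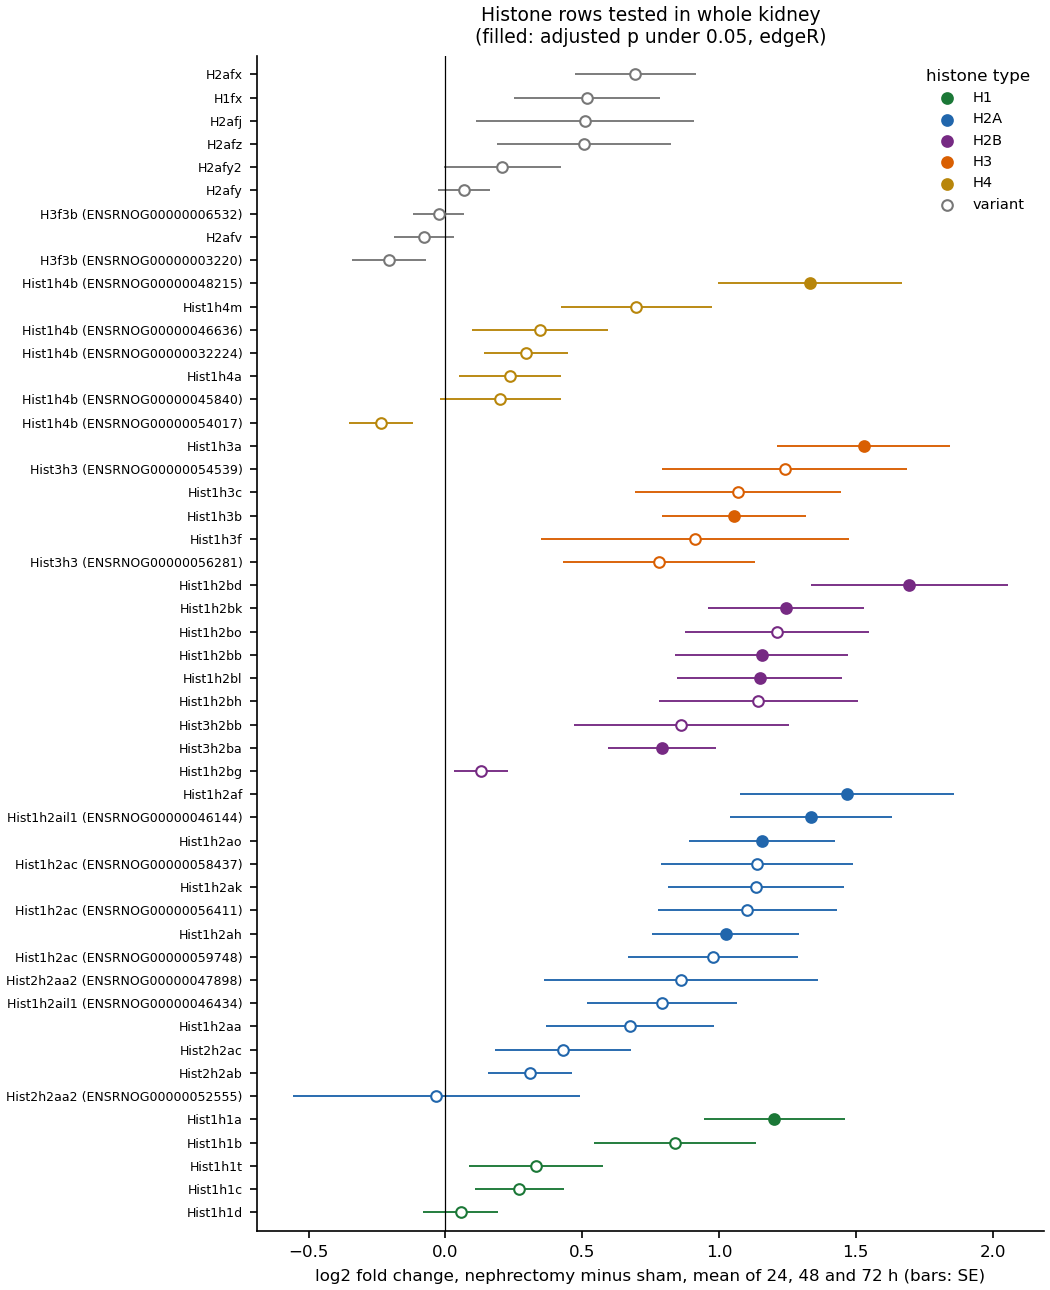
Log2 fold change of nephrectomy against sham in whole kidney, mean of 24, 48 and 72 h (x axis; bars are SE), for the 50 histone entries tested, by type. Filled points passed an adjusted p of 0.05: 13 Hist entries, from Hist3h2ba at 0.79 to Hist1h2bd at 1.70, and no variant.

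Of the linker histones, 1 of 5 H1 entries was called. Hist1h1a, which encodes a linker histone of the replication-dependent cluster, stood in sham libraries 1 to 4 at 13.5, 4.03, 8.26 and 6.58 CPM at 24 h, 6.45, 7.04, 9.73 and 9.92 at 48 h, and 9.35, 4.83, 9.96 and 9.31 at 72 h. After nephrectomy it stood at 10.1, 8.68, 6.94 and 21.3 CPM at 24 h, 12.8, 9.8, 25.1 and 56.9 at 48 h, and 17.8, 16.1, 22.8 and 30.2 at 72 h. The groups overlapped at 24 and 48 h and not at 72 h, where every nephrectomy library was above every sham library. Hist1h1a rose by 1.20 ± 0.26 (SE) on the log2 scale (adjusted p = 0.0152), with 11 of 12 nephrectomy libraries above the sham mean of their time. Hist1h1c, the linker histone with the highest level per length of all histone entries here, had 79.0, 79.0, 97.9 and 75.9 CPM in the 72 h sham libraries and 113, 85.2, 117 and 120 after nephrectomy. These groups overlapped, and its log2 fold change was 0.27 ± 0.16 (adjusted p = 0.403). Hist1h1d stood at 0.06 ± 0.14. Hist1h1b, which was not called, had 0.84 ± 0.30 (adjusted p = 0.135).

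Among H2A entries, which encode a core histone that pairs with H2B, 4 of 14 rose, with a median over the 14 of 1.00. Types follow the symbols: both entries named Hist1h2ail1 have a length of 410 bases implied by the deposited FPKM, as the H3 entries named Hist1h3 and Hist3h3 do, while the other 12 H2A entries have shorter ones, so the type of that pair is uncertain. Hist1h2ail1 (ENSRNOG00000046144) had 2.55 to 5.05 CPM in the 72 h sham libraries and 8.97, 8.14, 10.4 and 11.2 after nephrectomy. At 48 h the nephrectomy libraries stood at 7.01, 2.92, 9.75 and 35.4 CPM against 2.60 to 3.84 in sham, with library 2 inside the sham range. It rose by 1.34 ± 0.30 on the log2 scale (adjusted p = 0.0174). The other entry of the pair, Hist1h2ail1 (ENSRNOG00000046434), was not called at 0.79 ± 0.27 (adjusted p = 0.126). Hist1h2af rose by 1.47 ± 0.39 (0.0428), Hist1h2ao by 1.16 ± 0.27 (0.0205) and Hist1h2ah by 1.02 ± 0.27 (0.041), with adjusted p in parentheses. Hist1h2af was a low entry, at 0.192 to 0.535 CPM in the 72 h sham libraries and 0.543 to 1.03 after nephrectomy.

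H2B entries were called most often among the types, 5 of 9, with a median of 1.15; counts between types were not tested against each other. Hist1h2bd had 0.947, 0.288, 1.03 and 1.00 CPM in sham and 2.00, 1.96, 2.23 and 2.61 after nephrectomy at 72 h, and 0.392 to 0.543 against 0.545, 0.665, 1.96 and 6.37 at 48 h. The groups did not overlap at either time, and all 12 nephrectomy libraries were above the sham mean of their time. It rose by 1.70 ± 0.36 on the log2 scale (adjusted p = 0.0151). Hist1h2bk, the other H2B gene whose window is printed with an octamer, had 3.55, 1.88, 4.22 and 3.30 CPM in sham and 4.88, 5.40, 7.79 and 9.19 after nephrectomy at 72 h. In all 12 nephrectomy libraries it again exceeded its time's sham mean, and it rose by 1.25 ± 0.29 (adjusted p = 0.0205). Hist1h2bb (1.16 ± 0.32, 0.0488), Hist1h2bl (1.15 ± 0.30, 0.04) and Hist3h2ba (0.79 ± 0.20, 0.0296) rose as well, whereas Hist1h2bo missed the threshold at 1.21 ± 0.34 (0.0513). Hist1h2bg, the H2B entry with the highest level, had 72.6 to 96.7 CPM in sham and 72.8 to 103 after nephrectomy at 72 h, groups that overlapped. Its log2 fold change was 0.13 ± 0.10.

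Among the 6 H3 entries, Hist1h3a and Hist1h3b rose, and the median was 1.06. Hist1h3a, a replication-dependent H3 gene, had 5.40, 2.78, 4.35 and 1.79 CPM in sham and 3.81, 3.25, 3.90 and 12 after nephrectomy at 24 h. At 48 h it had 2.99, 5.08, 4.88 and 2.82 in sham and 8.19, 5.55, 14.7 and 53.2 after nephrectomy, and at 72 h 6.02, 2.74, 6.12 and 5.88 against 11.9, 10.9, 16.6 and 19.1. Both later times had no overlap, while at 24 h only library 4 was above the sham range. Hist1h3a rose by 1.53 ± 0.32 on the log2 scale (adjusted p = 0.0141), and Hist1h3b by 1.06 ± 0.26 (0.0296), with 3.68 to 6.85 CPM in sham against 9.38 to 15.6 after nephrectomy at 72 h.

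H4 entries, of which several share the symbol Hist1h4b, gave 1 call of 7 and a median of 0.29. Hist1h4b (ENSRNOG00000048215) had 3.33, 2.04, 3.98 and 3.38 CPM in sham and 6.76, 6.03, 8.14 and 9.84 after nephrectomy at 72 h. The groups did not overlap at that time, and it rose by 1.33 ± 0.34 on the log2 scale (adjusted p = 0.0321). Hist1h4b (ENSRNOG00000054017) was not called at -0.24 ± 0.12 (adjusted p = 0.295), and 2 of 12 nephrectomy libraries were above the sham mean of their time. Hist1h4a stood at 0.24 ± 0.19. How reads were divided among the entries of this symbol was not tested.

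Among the variants, H2afx encodes the H2A form that is phosphorylated at DNA breaks. It had 9.72, 7.02, 8.39 and 7.13 CPM in sham and 11.5, 11.2, 13.1 and 15.0 after nephrectomy at 72 h, with no overlap. At 48 h it had 5.81 to 8.75 in sham and 9.42, 7.25, 12.8 and 46.8 after nephrectomy, and its log2 fold change over the times was 0.69 ± 0.22 (adjusted p = 0.0922). H2afz encodes H2A.Z, found at promoters, and had 8.31, 11.6, 12.4 and 12 CPM in sham and 13.4, 14.1, 19.3 and 22.6 after nephrectomy at 72 h. At 24 h its sham libraries alone spread from 4.41 to 42.6 CPM, a range that held all 4 nephrectomy libraries, and its log2 fold change was 0.51 ± 0.32 (adjusted p = 0.423). H3f3b (ENSRNOG00000006532), which encodes H3.3, the H3 placed outside replication, had 81.7 to 106 CPM in sham and 76.2 to 95.3 after nephrectomy at 72 h, and stood at -0.03 ± 0.09. The other entry of that symbol, H3f3b (ENSRNOG00000003220), stood at -0.21 ± 0.13 (adjusted p = 0.445). H2afy, which encodes macroH2A1, stood at 0.07 ± 0.10, and H2afv, another H2A.Z gene, at -0.08 ± 0.11.

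**Figure D2:**
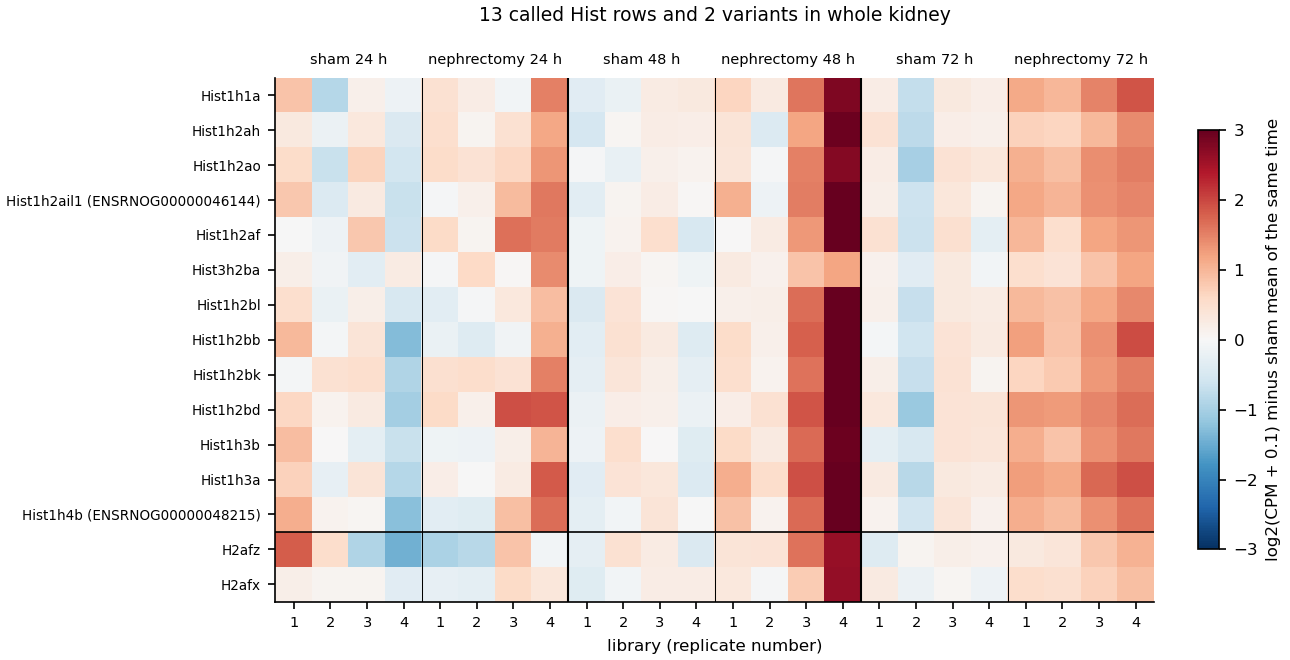
Log2(CPM + 0.1) of the 13 called Hist entries, and of H2afz and H2afx below the line, in each of the 24 whole kidney libraries (columns by group and replicate), minus the sham mean of the same time; red is higher. The 72 h nephrectomy columns are red for all 13 entries, library 4 stands out at 48 h, and the 24 h columns differ between libraries.

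Taken by time, the median log2 fold change of Hist genes was 0.22 at 24 h, 1.60 at 48 h and 0.91 at 72 h, against -0.02, 0.01 and 0.00 over all genes and 0.11, 0.28 and 0.05 over variants. No histone entry passed the adjusted threshold at a single time in edgeR, where all genes gave 0.0893% higher and 0.147% lower at 24 h, 0 at 48 h and 0.00638% higher at 72 h. Other edgeR fits gave calls at single times. At 24 h without the libraries numbered 3 and 4, 3 Hist entries were lower, 3 variants lower and 1 variant higher, where all genes gave 6.22% higher and 10.2% lower. At 48 h, leaving out 1 library at a time gave 0 to 15 Hist calls, with 15 without nephrectomy library 2. At 72 h a fit of that time's libraries alone gave 11 Hist calls and 1 variant call. Calls over all genes in these 48 and 72 h fits are not given here. At an unadjusted p under 0.05, 1 Hist entry, Hist3h2ba, was higher at 24 h (4.85% of all genes), 32 at 48 h (6.08%) and 14 at 72 h (3%). Of variants, H1fx was higher and H2afv lower at 24 h, H2afz and H2afx were higher at 48 h, and none at 72 h. DESeq2 called 17 Hist entries at 48 h and 0 at 24 and 72 h. Over all genes it called 307 at 24 h, 166 at 48 h and 7 at 72 h. With library totals and no TMM the Hist median at 24 h was -0.13, beside -0.32 over all genes, and at 48 h 1.97, beside 0.27. Without the 24 h libraries numbered 3 and 4 the 24 h median was -0.37, and without nephrectomy 48 h library 4 the 48 h median was 0.77. The difference of the effect between times was called for 0 histone entries (0.0191% of all genes). By overlap, 0 of 41 Hist entries had all nephrectomy libraries above all sham libraries at 24 h (1.69% of all genes), 4 at 48 h (3.43%) and 20 at 72 h (5.33%). The 4 were Hist1h3a and Hist1h2bd and, named after their values were seen, Hist1h2aa and Hist2h2aa2 (ENSRNOG00000047898). Of the 9 variants, 0 did so at 24 and 48 h, and H2afz and H2afx did at 72 h. No histone entry had all nephrectomy libraries below sham at any time (1.62, 3.81 and 5.43% of all genes).

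Summed over all 43 Hist entries, mRNA was at 382.8 ± 94.5 CPM (SD, n = 4) in sham and 412.3 ± 37.9 after nephrectomy at 24 h, ranges that overlapped. At 48 h the sum was 349.6 ± 19.5 in sham and 328.4, 342.1, 509.0 and 1114.5 CPM in the nephrectomy libraries, 2 of them inside the sham range or below it. At 72 h it was 390.5 ± 49.3 in sham and 523.9 ± 75.2 after nephrectomy, and nephrectomy library 2 (433.3) was within the sham range, which reached 451.9. The variant sum was 211.7 and 218.2 CPM at 24 h, 189.2 and 205.0 at 48 h, and 188.5 ± 11.5 and 197.9 ± 13.9 at 72 h, sham before nephrectomy, and overlapped at each time.

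Much of the Hist sum came from Hist1h1c, Hist1h1d and Hist1h2bg, entries that were not called. They made up 51.7 to 58.2% of Hist counts in the 72 h sham libraries and 45.3 to 49.5% after nephrectomy, with no overlap. Without these 3, a choice made after their values were seen and given with no test, the sum was 173.4 ± 27.6 CPM in sham and 277.2 ± 48.6 after nephrectomy at 72 h. Those ranges, 138.4 to 200.9 and 224.3 to 331.1, did not overlap. At 48 h the same sum was 128.2 to 171.6 CPM in sham and 152.5 to 801.7 after nephrectomy, ranges that overlapped, and at 24 h its means were 160.8 and 160.2 CPM.

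**Figure D3:**
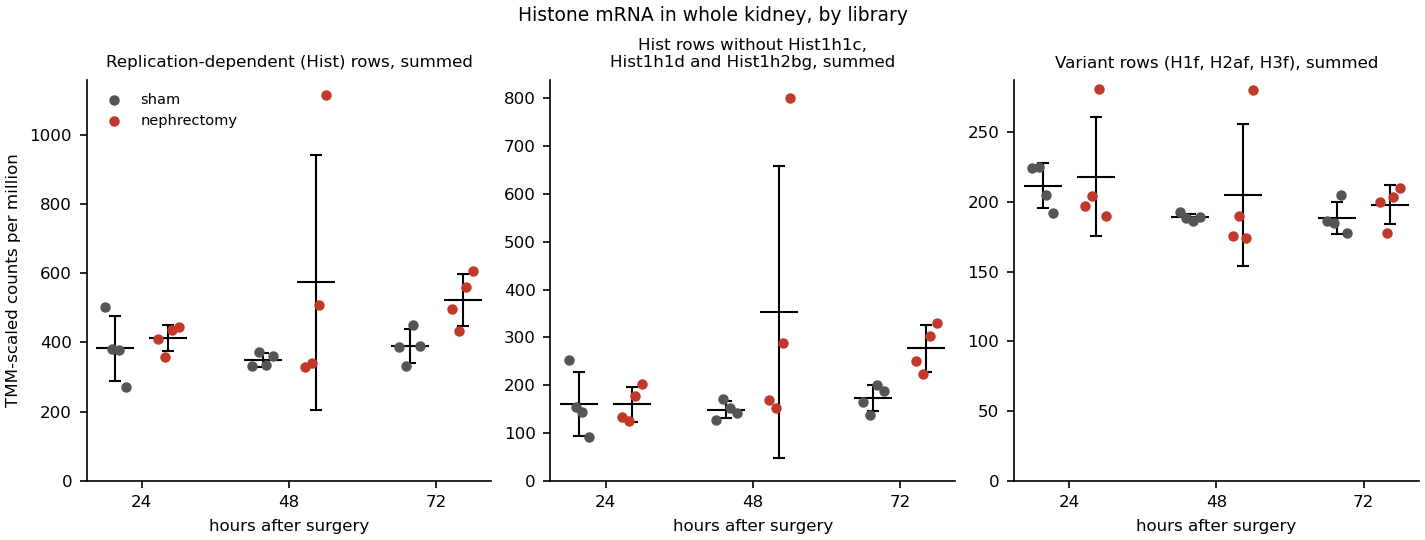
Summed TMM-scaled CPM in whole kidney at 24, 48 and 72 h (x axis) for all Hist entries, for Hist entries without Hist1h1c, Hist1h1d and Hist1h2bg, and for variants. Points are libraries, and black marks are the mean and SD of 4. At 72 h the groups overlap in the panel of all Hist entries and in the variant panel. They are apart in the middle panel (138.4 to 200.9 against 224.3 to 331.1), whose omitted entries were chosen after their values were seen.

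The order of levels per length, from the deposited FPKM of the 12 whole kidney sham libraries, placed Hist1h1c first at a median of 133 (34.2 to 265), followed by Hist1h2bg at 88.9 (50.4 to 124), Hist1h1d at 83 (45.6 to 122), Hist1h4a at 60.6 and H3f3b (ENSRNOG00000006532) at 58.3. Neighbours in this order overlapped in range, as those of Hist1h2bg and Hist1h1d did. How far these libraries captured mRNA without a poly(A) tail is not given here, and the order was not corrected for it. The 12 entries with the highest medians held no called entry. The called entry with the highest level was Hist1h2ah at 15.6 FPKM, and the lowest was Hist1h2af at 0.608. Hist1h1a (11.7 FPKM) and Hist1h3a (10.6 FPKM), both called, lay between these.

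**Figure D4:**
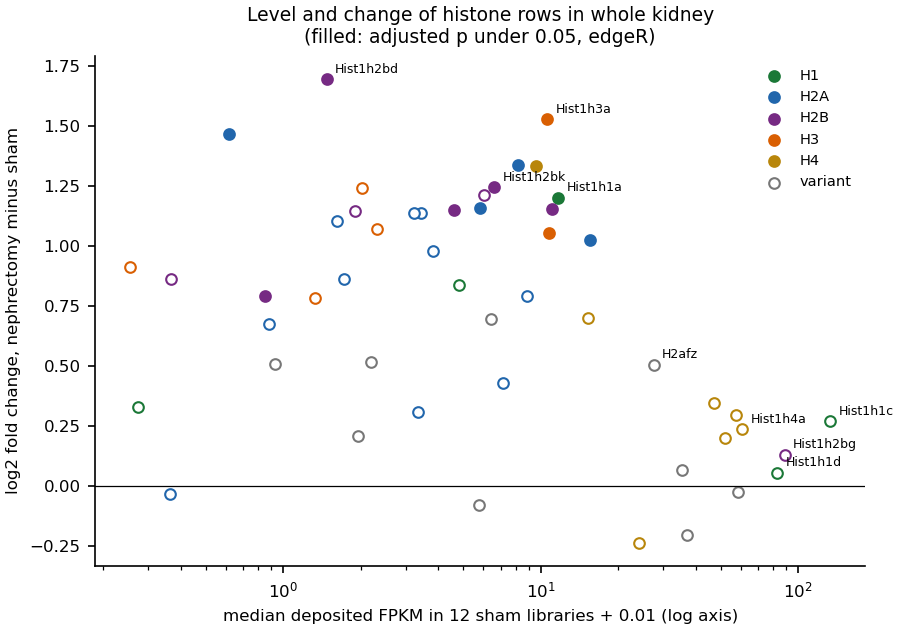
Median deposited FPKM over 12 sham libraries plus 0.01 (x axis, log scale) against the log2 fold change of nephrectomy against sham in whole kidney (y axis), by histone type; filled points were called. The called entries lie at or below 15.6 FPKM, and Hist1h1c, Hist1h2bg and Hist1h1d, at 83 FPKM or more, lie between 0.06 and 0.27.

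Genes that are known to act with replication-dependent histones were given beside them from 3 lists. Of 25 S phase and mitosis genes, 20 were called higher and 0 lower in whole kidney over the mean of the times, with a median log2 fold change of 1.04. Mcm6, a helicase subunit, stood at 1.04, Ccna2, cyclin A2, at 1.22, and Top2a, a topoisomerase, at 1.32. Mki67, a marker of cycling cells, had 30.3, 14.4, 36.5 and 24.5 CPM in sham and 66.3, 60, 67.5 and 79.2 after nephrectomy at 72 h and rose by 1.15. Pcna, the sliding clamp, stood at 0.21 and was not called. Of 21 genes for histone mRNA transcription and processing, 3 rose and 0 fell, with a median of -0.02. These were the cyclins Ccne1 (1.40) and Ccne2 (0.70) and the factor E2f1 (1.12), which act in cell cycle entry. Slbp, which binds the stem-loop, stood at 0.22 (adjusted p = 0.291), and Npat, a coactivator of histone genes, at -0.11. Of 28 chaperones and chromatin assembly genes, 4 rose and 1 fell, with a median of -0.01. Chaf1a, a subunit of the replication-coupled assembly factor, rose by 0.59, Hjurp, the chaperone of CENP-A, by 1.72, Cenpa by 1.41 and Mms22l by 1.08. Npm1 fell by 0.35 (adjusted p = 0.0488).

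Marker lists of other cell types had these values. Of 7 tested leukocyte markers 0 were called, and their summed CPM was 304.8 to 437.6 in sham and 200.1 to 390.6 after nephrectomy. Of 10 proximal tubule markers 1 was lower, with sums of 5542 to 8954 and 5279 to 7090. Of 3 red cell precursor markers 0 were called, with sums of 3.15 to 30.4 and 1.33 to 26.1. The lists for mesangium and smooth muscle and for collecting duct each had 1 of 6 markers higher, and podocyte, endothelium and loop lists had 0 called. The part of these shifts in the histone values was not tested.

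In the microdissected segments the same comparison called no histone entry. In glomeruli 0 of 23 Hist and 0 of 10 variant entries were called at any time or over the mean, by edgeR or DESeq2, and 0 had an unadjusted p under 0.05 over the mean. DESeq2 called 2 of all genes at 24 h, 2 at 48 h, 1 at 72 h and 3 over the mean. Over all genes edgeR called 0% in both directions, and at an unadjusted p under 0.05 it had 1.12% higher and 0.986% lower. At single times no glomerular histone entry reached that unadjusted level either, where all genes gave 0.576% higher and 0.344% lower at 24 h, 0.299 and 1.06% at 48 h, and 1.98 and 0.919% at 72 h. The median log2 fold change of Hist genes was 0.46 at 24 h, 0.24 at 48 h and -0.11 at 72 h. Over the mean it was 0.23, with 15 of 23 above 0, and with limma on the deposited RPKM it was -0.06, so its direction changed with the method.

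Hist1h1c in glomeruli had 157, 158 and 482 CPM in the 3 sham libraries kept at 24 h and 227, 49.2, 143 and 554 after nephrectomy. At 48 h it had 136, 60.9, 140 and 194 in sham against 109, 114, 179 and 125, and at 72 h 146, 66.2, 588 and 233 against 280, 113, 4.27 and 362. The groups overlapped at each time, and nephrectomy 72 h library 3, the shallowest, was the lowest of all. H3f3b (ENSRNOG00000006532) at 24 h was the single tested histone entry whose glomerular nephrectomy libraries were all above sham (1.43% of all genes), at a log2 fold change of 0.55 ± 0.44. The other entry of this symbol, H3f3b (ENSRNOG00000003220), stood at -0.66 ± 0.71 at 24 h, and its groups overlapped. H1foo, an oocyte linker histone, was the single tested histone entry with all below, at 72 h (0.799%), at -1.56 ± 1.11. No other tested histone entry was without overlap in glomeruli (of the untested, Hist3h2bb was all below at 24 h and was named after its values were seen), where all genes gave 1.37% below at 24 h, 0.763% above and 1.29% below at 48 h, and 0.317% above at 72 h. The effect differed between times for 0 glomerular histone entries (0.00446% of all genes).

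In S1 tubules 0 of 13 Hist and 0 of 7 variant entries were called by edgeR or DESeq2. None had an unadjusted p under 0.05 over the mean. At that level edgeR had 1.93% of all genes higher and 0.61% lower, and 0% after adjustment. DESeq2 called 3 of all genes at 24 h, 11 at 48 h, 744 at 72 h and 11 over the mean. The Hist median was 0.33 at 24 h, 0.27 at 48 h and 0.81 at 72 h, and 0.40 over the mean with 13 of 13 above 0; over all genes the 72 h median was 0.13 and over the mean it was 0.03. Hist1h2bo, an H2B gene, had the smallest p, at 1.33 ± 0.74 over the mean. At 72 h it had 0.21, 0, 0.051 and 0.329 CPM in sham and 0.601, 0.505, 0.569 and 1.34 after nephrectomy, the single tested histone entry without overlap in S1 tubules (0.664% of all genes). Among tested entries there was 0 at the other times and 0 below sham (of the untested, Hist1h1t was all above at 24 h and was named after its values were seen), where all genes gave 1.81% above and 1.58% below at 24 h, 2.92 and 2.81% at 48 h, and 0.495% below at 72 h. At single times no S1 histone entry had an unadjusted p under 0.05 either, where all genes gave 0.354% higher and 0.376% lower at 24 h, 0.386 and 1.58% at 48 h, and 12 and 1.25% at 72 h. The effect differed between times for 0 entries (0.0109% of all genes). Hist1h1c had 35.4, 29.7, 39.0 and 7.56 CPM in sham and 37.6, 0.126, 71.7 and 48.3 after nephrectomy at 72 h, groups that overlapped. Without sham 72 h library 1, the Hist median at 72 h was 1.78. S phase and mitosis genes gave 0 calls of 25 in either segment, with medians of 0.05 in glomeruli and 0.67 in S1 tubules. At an unadjusted p under 0.05, 11 of the 25 were higher in S1 tubules over the mean, against 1.93% of all genes, with 8 at 48 h and 7 at 72 h, and 0 were in glomeruli over the mean. The difference of the nephrectomy effect between glomeruli and S1 tubules was called for 0 histone entries (0% of all genes).

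Of the 13 entries called in whole kidney, 8 were abundant enough to test in glomeruli and 4 in S1 tubules. Over the mean of the times, those 8 had log2 fold changes of 0.14 to 0.63 and those 4 of 0.51 to 1.41, none called. Hist1h3a, not tested in either, was at most 0.374 CPM in glomeruli and 0.0464 CPM in S1 tubules, in any library. Levels are not compared with whole kidney, whose libraries were made another way.

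Within the segments, sham glomeruli were compared with sham S1 tubules. Of 27 Hist entries tested, 5 were higher in glomeruli and 1 lower, and of 10 variants 2 were lower; over all 24488 genes, 21.1% were higher and 18.6% lower. Medians were 1.11 for Hist genes, 0.22 for variants and 0.69 for all genes. The filter used both segments together, so entries abundant in glomeruli alone were tested, beside 13 Hist entries tested in S1 tubules alone. The Hist median therefore includes entries near 0 in S1 tubules. Hist1h1b, a linker histone, was at a median of 11.2 deposited RPKM (3.82 to 69.6) in 11 sham glomerular libraries and 0.41 (0 to 1.63) in 11 S1 libraries. It was higher in glomeruli by 3.46 ± 0.64 on the log2 scale (adjusted p = 1.2e-05). Hist1h2bl was higher by 2.70 ± 0.72 (0.00192) and Hist1h2bo by 1.74 ± 0.65 (0.0295). Hist3h3 (ENSRNOG00000054539) and Hist1h1t, the testis linker histone, were higher by 2.76 ± 0.94 (0.0158) and 2.13 ± 0.78 (0.025), and were named after their values were seen. Hist3h3 (ENSRNOG00000054539), Hist1h1t and Hist1h2bl were not abundant enough to test in S1 tubules alone. Their S1 sham medians were 0, 0.0682 and 0.163 RPKM in that order, with 9, 5 and 5 of 11 libraries at 0. These differences therefore rest on S1 values near the floor. Hist1h4b (ENSRNOG00000054017) was lower by the test, at -1.86 ± 0.26 (4.95e-08), as were H2afz at -1.27 ± 0.31 (0.000576) and H2afx at -0.73 ± 0.25 (0.017). With each replicate number left out in turn, the Hist1h2bo call held in 0 of 4 fits and the H2afx call in 2. The calls of Hist1h1b, Hist1h2bl, H2afz and Hist1h4b (ENSRNOG00000054017) held in all 4.

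The scaling decided the direction of H2afz and H2afx. TMM factors were 1.44 to 2.45 in glomeruli and 0.34 to 0.912 in S1 tubules. With library totals and no TMM, the median over all genes was 2.37 in place of 0.69, H2afz was at 0.50 and H2afx at 0.94, and Hist1h4b (ENSRNOG00000054017) was at -0.15. The deposited RPKM, which rest on library totals, had a median of 32.0 for H2afz in glomeruli and 21.9 in S1 tubules. Under both scalings these 3 lay below the median of all genes, and Hist1h1b lay above it. Hist1h1c and Hist1h1d, the highest entries of both segments per length, had medians of 259 and 195 RPKM in glomeruli and 41.6 and 51.0 in S1 tubules, and did not pass the test.

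**Figure D5:**
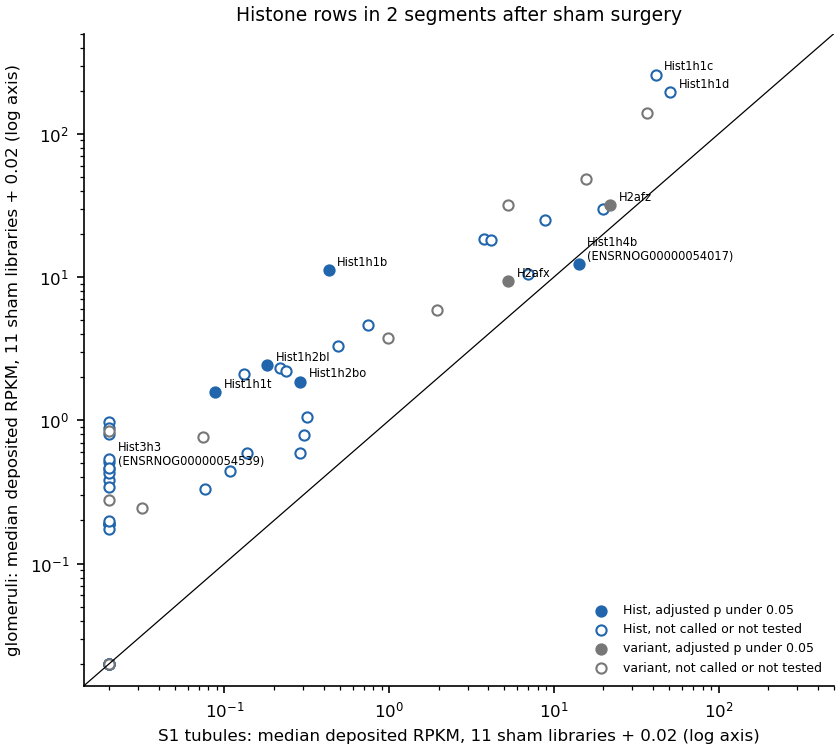
Median deposited RPKM plus 0.02 in 11 sham S1 libraries (x axis) and 11 sham glomerular libraries (y axis), both on log scales, for the histone entries; the line marks equal values and filled points were called after TMM scaling. Hist1h1b lies far above the line (11.2 against 0.41), and H2afz lies above it in RPKM although it was called lower after TMM scaling.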

How the data were processed

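The authors deposited whole-number read counts per gene, and RPKM (segments) and FPKM (whole kidney) values, per the file headers. Trimmomatic 0.32, STAR 2.4.0.1, SAMtools and HTSeq are named in the submitters' processing notes; genome build, annotation and strand setting were not given in the sources used here. The deposited RPKM and FPKM were checked to be count over gene total over a constant per gene (largest coefficient of variation 4.04e-09 over 21280 genes and 8.37e-09 over 14609). HTSeq summary entries name no gene and were left out. None of 108 within-group library pairs was a copy (chi-square over degrees of freedom at least 5.99).

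Counts were fitted in R 4.3.3 with edgeR 4.0.16 (TMM, filterByExpr with minimum count 10, a mean per group, quasi-likelihood tests, Benjamini-Hochberg over all genes tested, threshold 0.05), by tissue, with 1 more fit of both segments. The script was tested on simulated data. Alternatives were DESeq2 1.42.0, limma 3.58.1 on log2(RPKM or FPKM + 1), no count filter, a replicate block, left-out libraries and, chosen after seeing the data, no TMM, 48 and 72 h only, and segments without each replicate number. Whether libraries with the same replicate number belong together was not settled. Correlations of their deviations exceeded 0.1 for 6 of 12 whole kidney pairs, 2 of 11 in glomeruli, 5 of 11 in S1 tubules and 12 of 23 between segments. Their medians were 0.098, -0.043, 0.077 and 0.101 in that order, against -0.076, 0.02, -0.049 and -0.029 for other pairs. The main fits treated all libraries as independent, also between segments. The histone genes and lists were chosen with earlier results of these data known. Named genes were those called, the 5 highest Hist and 5 highest variants per tissue, the 3 smallest p per time, and a list of common variants and Hist genes; in each list of other genes, up to 4 with the smallest p and a few cell cycle genes. Counts come without molecular identifiers, so errors are those between libraries.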

Additional observations from a re-analysis of the deposited data

Results flagged for a closer look

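In each group of 4 libraries, the highest and the lowest library were compared with the rest for 126 sets of histone values (class sums and genes called in whole kidney), by the gap to the nearest library over the range (Dixon's test). Of these sets 12 (9.52%) had a library that stood apart; chance gives about 1 in 20, and sets share libraries. In whole kidney after nephrectomy at 24 h, library 4 was highest for 4 genes. Hist1h3a was at 12 CPM there, with the others at 3.25 to 3.90. Hist1h2bk was at 6.82, with the others at 3.18 to 3.43, Hist1h2bb at 7.35 (2.61 to 3.18) and Hist1h2ao at 4.58 (2.39 to 2.75). In the sham 72 h group, library 2 was lowest for 4 genes: Hist1h1a at 4.83 CPM (others 9.31 to 9.96), Hist1h3a at 2.74 (5.88 to 6.12), Hist1h2bl at 1.08 (2.02 to 2.21) and Hist1h2bd at 0.288 (0.947 to 1.03). Nephrectomy 48 h library 4 was highest for Hist1h2af at 3.56 CPM (0.284 to 0.832) and for the variant sum at 280.5 (174.2 to 190.0). The variant sum was also high in nephrectomy 24 h library 3, at 281.4 CPM (190.3 to 204.1), the library with 93.9% of reads without a unique placement. In S1 tubules, the Hist sum of nephrectomy 24 h library 4 was 358.3 CPM, with the others at 144.7 to 176.1. In the same libraries Mki67 was at 54.0 CPM in nephrectomy 24 h library 4 and 14.4 CPM in sham 72 h library 2 of whole kidney; its part in these values was not tested.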

How the results depend on the processing

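In whole kidney over the mean of the times, 448 of all genes were called in the main fit. DESeq2 called 865, edgeR without TMM 121 and limma on log2(FPKM + 1) 0. The 13 Hist calls became 21 with DESeq2, 5 without TMM, 0 with limma, and 6 to 18 with 1 library left out. They became 2 without the 24 h libraries numbered 3 and 4. They fell to 8 or fewer without nephrectomy 24 h library 4, 48 h libraries 3 or 4, 72 h libraries 3 or 4, sham 24 h library 4, sham 48 h libraries 1, 2 or 4, or sham 72 h libraries 2 or 4. The median over Hist genes was 0.60 without nephrectomy 48 h library 4 and 1.26 over 48 and 72 h only, where 19 were called. The 0 variant calls became 1 with DESeq2, 1 without the 24 h libraries numbered 3 and 4 (H2afy), 1 over 48 and 72 h only (H2afz), and 0 to 1 with 1 library left out. At 24 h, leaving out libraries 3 and 4 gave 3 Hist calls, all lower, and 4 variant calls, 3 lower and 1 higher (6.22% of all genes higher, 10.2% lower), with a Hist median of -0.37; the variant median without TMM was -0.28. At 48 h DESeq2 gave 17 Hist calls and 1 variant call, where it called 166 of all genes. Leaving out 1 library gave 0 to 15 Hist and 0 to 1 variant calls (15 and 1 without nephrectomy library 2). At 72 h a fit of that time alone gave 11 and 1. The cause of these shifts was not tested. Apart from the shares given at 24 h, all-gene counts of the fits on fewer libraries are not given here.

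Between glomeruli and S1 tubules, the 6 Hist calls became 12 with DESeq2, 10 without a count filter and 24 without TMM, and the 2 variant calls 4, 2 and 9. Of the 24488 genes tested, 9721 were called in the main fit, 11960 with DESeq2 and 21295 without TMM. The all-gene count without a count filter is not given here. Leaving out replicate 3 left 1 variant call. Without TMM the log2 differences H2afz 0.50, H2afx 0.94, H2afy 1.49, H2afy2 1.45 and Hist1h4b (ENSRNOG00000032224) 1.31 were above 0 instead of below, and the medians were 2.80 (Hist) and 1.96 (variant). In S1 tubules at 72 h the Hist median without sham library 1 was 1.78. With the replicate number as a block, whole kidney gave 8 Hist calls, all among the 13, and glomeruli against S1 tubules 4 variant calls. Whether the numbers pair libraries was not settled. All-gene counts of the block fits and of the fits without a replicate number are not given here. The other 728 counts and 756 medians stayed near their values. The biological coefficient of variation was 0.625 in glomeruli and 0.713 in S1 tubules against 0.248 in whole kidney.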

Other observations

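Histone genes outside the chosen prefixes were read as well, in CPM of the library total without TMM. LOC680097 was at 6.70 to 74.7 CPM (median 36.5) in 12 whole kidney sham libraries and at 12.8 to 159 (41.6) in 12 after nephrectomy. AABR07027811.4 was at 0.404 to 2.92 (1.36) and 0.792 to 13.6 (2.61), and AABR07027811.1 at 0.0202 to 0.69 (0.35) and 0.164 to 5.87 (0.499). LOC100912338 was at 0.767 to 4.04 (1.31) and 1.15 to 3.25 (1.99). The ranges of the surgeries overlapped for each.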
